A study of Rattus norvegicus with 5 samples.

Results

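The sodium, potassium and calcium channel genes on the array made up 123 of the 8799 probe sets, which stood for 77 of the 4736 genes named by a single symbol. They were taken by symbol, as every probe set with a single gene symbol beginning with Kcn, with Scn and a digit, or with Cacn, apart from Kcnj10. The members are therefore wider than voltage-gated channels in the strict sense. They include inward rectifiers, leak channels of the two-pore-domain family, channels opened by intracellular calcium or sodium, auxiliary subunits, and Scn7a, which has the structure of a voltage-gated sodium channel but is known as a sensor of extracellular sodium. Of the 123 probe sets 80 belonged to potassium, 26 to calcium and 17 to sodium channels.

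Total RNA came from retinal Müller cells of male Sprague-Dawley rats. The normal group was 3 pools of cells from healthy rats, 12 rats a pool, on 1 array each. The diabetic group was 1 pool of 12 rats made diabetic with streptozotocin, which kills the insulin-producing cells, kept so for 6 months and given low insulin doses against wasting. It was hybridised to 2 arrays, the second labelled a technical replicate, so 1 diabetic pool stands against 3 normal pools, and no label says whether rats of different pools were of like age. The question was which transcripts of these glia differ after long diabetes.

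Müller cells span the retina and carry potassium released by active neurons away to the vitreous and the blood vessels. They do so mainly through inward rectifiers, which pass potassium more easily into than out of the cell and set a very negative resting potential. Voltage-gated sodium and calcium channels open on depolarisation and carry the action potential and the calcium entry that drives transmitter release, while voltage-gated potassium channels end the depolarisation. Neurons hold most of these channels, but Müller cells are known to carry some voltage-gated potassium, sodium and calcium channels and the large-conductance calcium-activated potassium channel.

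The arrays differed before any comparison of groups. Intensities were quantile-normalised, and values under 20 were set to 20, here called the floor. At that floor lay 48 to 58 of the 123 members on each array (39.0% to 47.2%), against 28% to 28.1% of all 8740 non-control probe sets. On all 5 arrays 36 members (29.3%) were at the floor, against 17.3% of all probe sets. Normal array 1 stood apart. Over the 67 members bright enough to be tested, which share an array and a normalisation, it correlated with the other arrays at r = 0.658 to 0.699, and those correlated with one another at 0.693 to 0.82. It held the highest value of the 5 arrays for 26 of the 67 (38.8%), against 28.1% of all tested probe sets. The ratio of 3' to 5' signal for actin, which climbs as RNA degrades, was 2.61 on it, with 2.55 on diabetic array 2 and 1.46 to 1.76 on the rest. The part of RNA integrity in the channel values was not tested. Normal array 3 and diabetic array 2 shared a processing day and chip lot, whereas normal arrays 1 and 2 had a day and lot each and the record of diabetic array 1 gave neither.

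**Figure D1:**
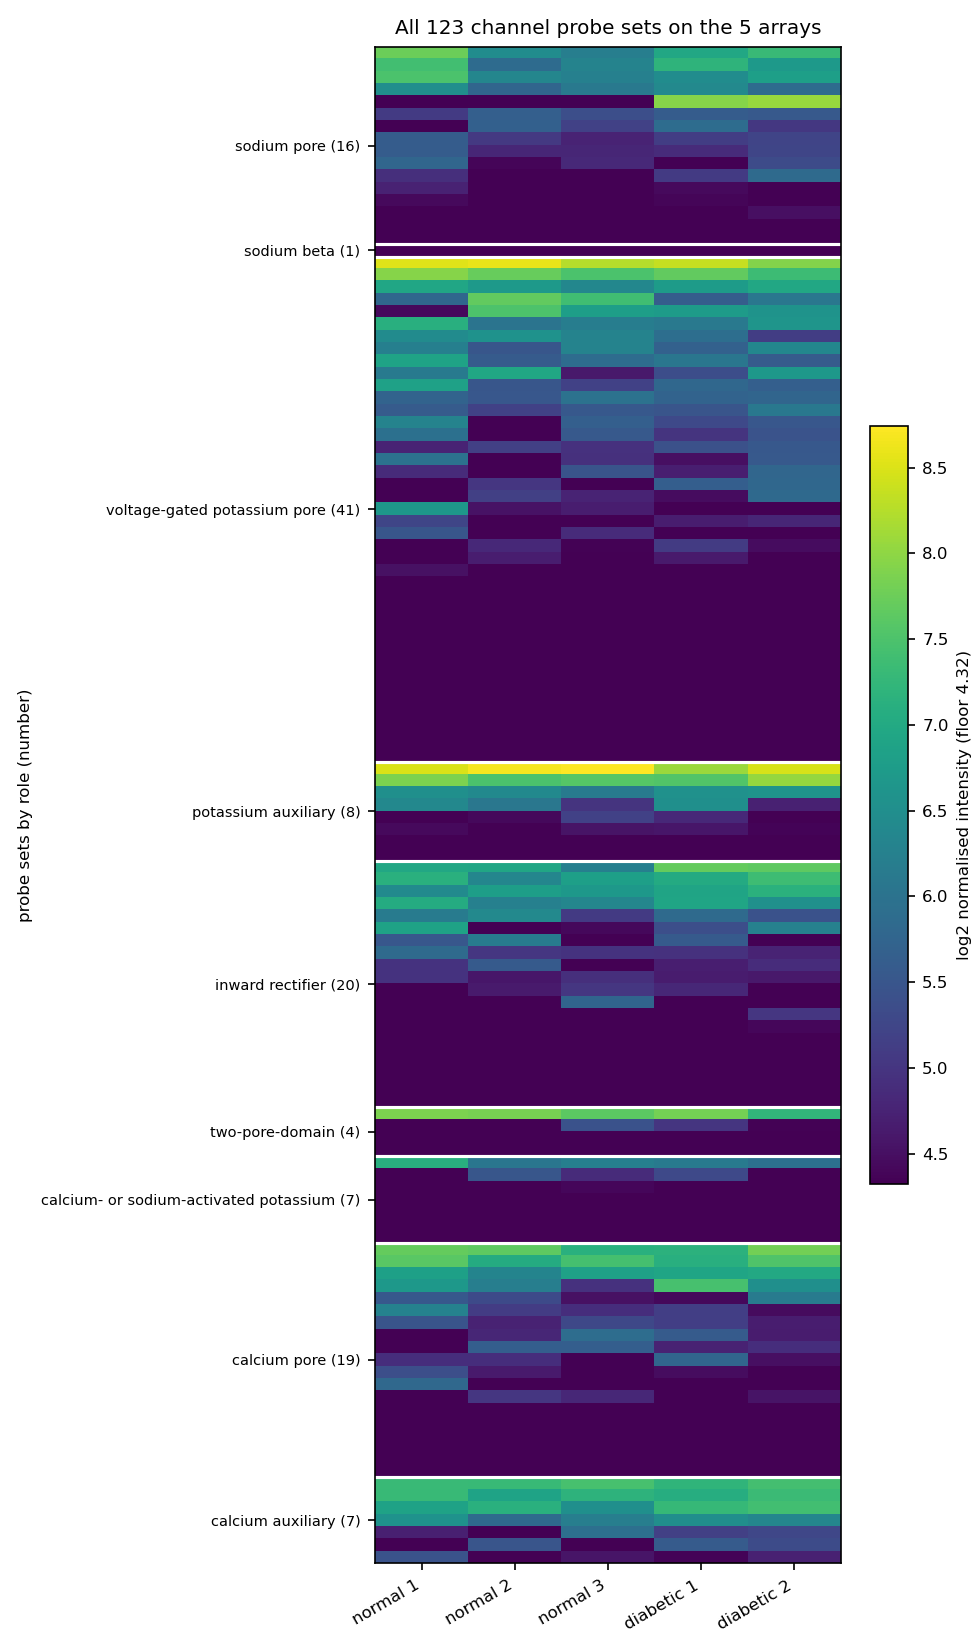
Log2 normalised intensity of all 123 channel probe sets (rows, grouped by role with the number in each group, brightest at the top of a group) on the 3 normal and 2 diabetic arrays (columns); the darkest colour is the floor of 20, or the lowest value on the log2 scale. Dark rows across all columns are the 36 probe sets at the floor on every array, and the row in the sodium pore group that is dark on the normal arrays and bright on both diabetic arrays is rc_AA925248_at, assigned to Scn7a.

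No channel gene passed the test between diabetic and normal Müller cells, and a single probe set assigned to Scn7a stood far from the other channel probe sets. The filter on dim probe sets kept 67 of the 123 members (54.5%), of 54 genes, against 70% of all probe sets. Of the 67 tested members 35 (52.2%, against 48.8% of all tested probe sets) were above and 32 below the normal mean, with a median log2 difference of 0.02 between the diabetic and the normal pools, beside -0.01 over all 6118 tested probe sets. With limma 0 of the 67 had an adjusted p under 0.05, as did 0 of 6118 (0%). An unadjusted p under 0.05 was reached by 1 member (1.49%), against 1.6% of all tested probe sets. For 58 of the 67 (86.6%) the range over the 3 normal pools was at least as large as the difference, as it was for 85.5% of all tested probe sets. The 2 arrays of the diabetic pool differed by at least that much for 44 members (65.7%, against 64.5%). Differences under 2-fold, a log2 difference of 1, were found for 63 members (94%, against 96.8%). A difference of 2-fold or more above normal was found for 3 (4.48%, against 2.22%) and below normal for 1 (1.49%, against 1.01%). The 3 were probe sets of Scn7a, Kcnd2 and Cacna1b, and those of Scn7a and Kcnd2 were bright enough to be tested only through the diabetic group. With the deposited values unscaled, 62 of 69 tested members were above and 7 below normal, but all tested probe sets then had a median of 0.47, and 35 members lay above and 34 below that median. Fewer cells of a type and less RNA per cell cannot be told apart in these pools.

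For 9 tested members both diabetic arrays exceeded every normal array (13.4%), beside 9.53% of all tested probe sets, and for 4 (5.97%) both lay below every one, beside 7.01%. The 9 were probe sets of Scn7a, Kcnd2, Kcnj14, Scn1a, Kcnv1, Cacnb2, Kcnj1, Cacna1c and Kcnab2, and the 4 were probe sets of Kcnab2, Kcnj1, Kcnh4 and Kcna1. Kcnab2 and Kcnj1 thus appear on both sides through different probe sets. Of the 9, the probe sets of Scn7a, Kcnd2 and Scn1a were bright enough to be tested only through the diabetic group, and of the 4 that of Kcna1 only through the normal group, so these had to differ to be tested. The mean of the other group lay under the lowest level tested, 4.68 on the log2 scale. Without normal array 1, 45 of 70 tested members were above and 25 below normal, with a median difference of 0.19, beside -0.01 over all tested probe sets. Without diabetic array 1, 41 of 65 were above and 24 below, with a median of 0.17 beside 0.04. Between the arrays of the shared day the median was 0.18 beside 0.01. Without normal array 1, 21 tested members lay above both remaining normal arrays (18.5% of all tested probe sets did) and 7 lay below them (17.8%).

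**Figure D2:**
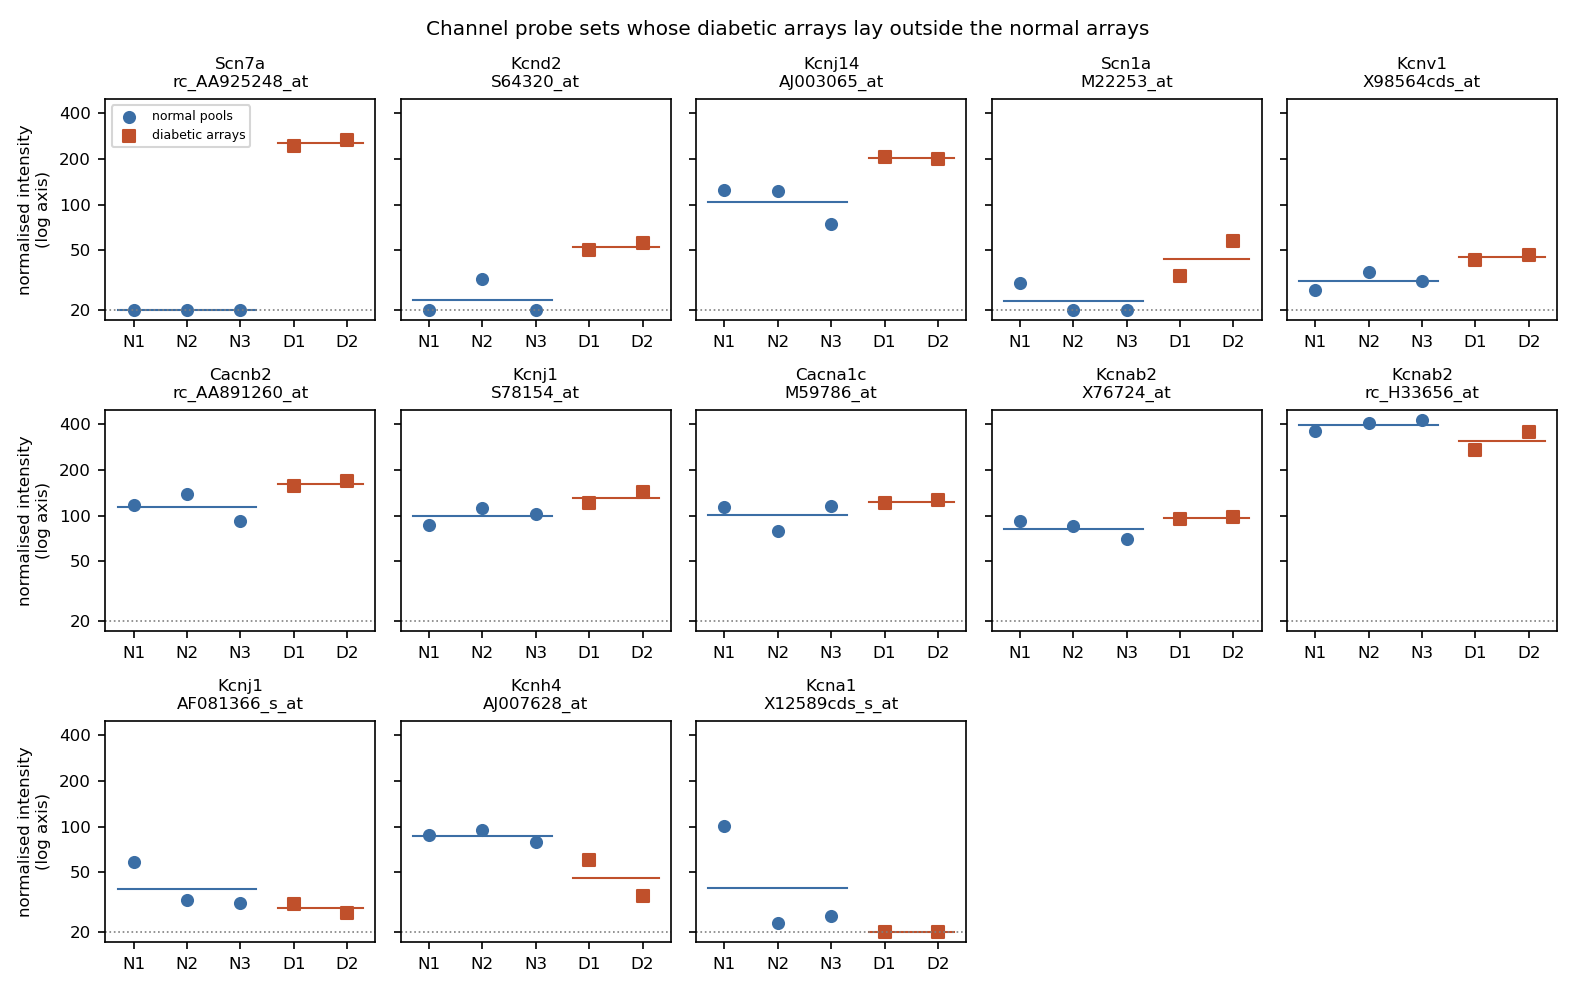
Normalised intensity (log axis) on each array for the 13 tested channel probe sets whose diabetic arrays lay outside the range of the normal arrays; circles are normal pools (N1 to N3), squares diabetic arrays (D1, D2), lines the group means on the log scale, and the dotted line the floor of 20. The probe set rc_AA925248_at, assigned to Scn7a, goes from the floor on the 3 normal arrays to 244 and 268 on the diabetic arrays, while in the other 12 panels the group means of the floored values differ by at most 2.25-fold.

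Among the sodium channel pore subunits, Scn7a encodes a channel-like protein that opens with rising extracellular sodium rather than with voltage and is known from glia of the brain's sodium-sensing organs and from Schwann cells. Its probe set rc_AA925248_at was at the floor of 20 on all 3 normal arrays and at 244 and 268 on the diabetic arrays. The deposited intensities, before normalisation and floor, were 13.6, 0.9 and 5.4 on the normal arrays and 263.2 and 305.1 on the diabetic ones. The groups do not overlap on either scale. The signal was at least 12.8-fold higher in the diabetic pool, a floored log2 difference of 3.68 (SE 0.46, n = 3 normal and 1 diabetic) whose size the floor sets, at 2.68 with a floor of 40 and 4.43 with a floor of 10. It did not pass limma's adjustment (unadjusted p = 3.0e-04, adjusted p = 0.495, within 0.00672 to 1 over the alternatives). The probe set was tested only because it is bright in the diabetic pool. With all normal arrays at the floor it had no spread there, so its standard error came wholly from the spread of other probe sets, as for all 10 tested probe sets with no normal spread, among which it was the only channel. With the 5 arrays taken as separate samples, which counts the repeat array as a pool, it was the 1 member (1.49%, against 0.212% of all tested probe sets) with an adjusted p under 0.05 (0.00672 with limma). Of the 1688 probe sets at the floor on all normal arrays 32 were above it on both diabetic arrays.

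The second probe set of Scn7a did not repeat that difference. S75991_at read 170, 58.7 and 78.4 on the normal arrays and 147 and 105 on the diabetic arrays. Both diabetic values lie inside the normal range. Its log2 difference was 0.44 (SE 0.67, adjusted p = 1.0 with limma), or 0.88 without normal array 1 and 0.11 without normal array 2. The part of the transcript that each probe set covers was not used here. The platform annotation lists no accession for rc_AA925248_at and assigns it to Scn7a by gene identifier alone. Whether it measures Scn7a transcripts was not tested, and its values hold for Scn7a only as far as that assignment does. Between the arrays of the shared day the difference was 3.74 for rc_AA925248_at and 0.43 for S75991_at.

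Genes of Schwann cells, which can express Scn7a, and of oligodendrocytes were measured beside it. Of 8 such genes 6 were measured and 3 tested, with 2 above and 1 below normal. The signal summed over the 6 was 1163, 1086 and 1372 on the normal arrays and 1284 and 1275 on the diabetic arrays, inside the normal range. Sox10, which defines these lineages, was at the floor on all 5 arrays, and Mbp and Mog read at most 30.5 and 29.9. Other genes of the list were brighter, with Pmp22 at 682 to 986, Mag at 129 to 278 and Cnp at 110 to 227. Pmp22 thus made up most of the sum. The part of such cells in the Scn7a values was not tested.

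To show the regulatory sequence of the channel genes with the lowest p-values, the 250 bases before the annotated transcription start are given for the genes of the 4 probe sets whose unadjusted p was under 0.05 with the 5 arrays taken as separate samples (5.97% of the tested members, against 4.02% of all tested probe sets). These were Scn7a, Kcnj14 and Kcnd2, above normal, and Kcnh4, below. The sequences are RefSeq's, read 5′ to 3′ on the gene's strand, and capitals mark a match to one of 6 searched motifs on either strand.
Scn7a: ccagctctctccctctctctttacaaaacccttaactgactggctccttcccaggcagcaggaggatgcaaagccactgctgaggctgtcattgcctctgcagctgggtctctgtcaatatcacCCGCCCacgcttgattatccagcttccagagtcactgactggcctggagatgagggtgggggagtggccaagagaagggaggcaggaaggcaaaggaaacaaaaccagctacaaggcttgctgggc
Kcnj14: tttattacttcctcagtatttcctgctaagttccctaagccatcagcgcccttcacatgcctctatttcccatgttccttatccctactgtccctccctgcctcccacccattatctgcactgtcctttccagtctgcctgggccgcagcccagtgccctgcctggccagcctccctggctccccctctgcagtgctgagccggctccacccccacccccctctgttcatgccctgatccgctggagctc
Kcnd2: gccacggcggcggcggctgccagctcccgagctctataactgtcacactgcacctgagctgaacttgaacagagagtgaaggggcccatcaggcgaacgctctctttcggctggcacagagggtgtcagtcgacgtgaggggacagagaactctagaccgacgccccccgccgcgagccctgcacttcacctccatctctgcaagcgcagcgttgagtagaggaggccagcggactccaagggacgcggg
Kcnh4: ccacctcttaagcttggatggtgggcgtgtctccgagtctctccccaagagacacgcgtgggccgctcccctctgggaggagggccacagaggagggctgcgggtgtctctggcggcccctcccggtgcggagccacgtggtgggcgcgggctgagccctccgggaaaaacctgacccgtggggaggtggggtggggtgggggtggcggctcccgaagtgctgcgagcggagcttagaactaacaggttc
The windows lie, on build GRCr8, at chr3:71846285-71846534 (minus strand) for Scn7a, chr1:105437259-105437508 (minus strand) for Kcnj14, chr4:50742235-50742484 (plus strand) for Kcnd2 and chr10:86188477-86188726 (minus strand) for Kcnh4, and 56%, 59.6%, 64% and 68.8% of their bases are G or C. The motifs were the TATA box (TATAAA), the CCAAT box (CCAAT), the GC box (GGGCGG), AP-1 (TGANTCA), STAT (TTCNNNGAA) and C/EBP (TTGCNNAA), where N is any base. In these 4 windows 1 match was found, a GC box of Scn7a that starts 126 bases before the transcription start and reads on the strand opposite to the gene. Among all 33469 promoter windows of that length 30.5% hold a GC box, 34.0% a CCAAT box, 12.9% a TATA box, 9.22% the C/EBP, 7.67% the STAT and 6.34% the AP-1 letters. Of the 77 channel genes 57 had a window, and 27 of these (47.4%) held a GC box, 12 (21.1%) a CCAAT box and 3 (5.26%) a TATA box. The STAT letters were in 4 (7.02%), and those of AP-1 and of C/EBP in 3 each (5.26%). Each channel gene was counted by its first listed window, whereas the shares over all windows count every listed window, so the units differ. A match describes letters and is not a binding site.

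Of the 16 sodium pore probe sets 11 were tested, 8 above and 3 below normal, with a median difference of 0.20 and a range of -0.16 to 3.68. Scn1a, a neuronal sodium channel, read 30.1, 20 and 20 on the normal arrays and 33.7 and 57.5 on the diabetic arrays. Both diabetic values are above all normal ones, though diabetic array 1 only narrowly. With a normal mean under the lowest level tested, this probe set too was tested only through the diabetic arrays. Its floored log2 difference was 0.94 (SE 0.51, adjusted p = 1.0 with limma), or 0.56 without diabetic array 2 and 0.26 with a floor of 40. The muscle sodium channel Scn4a was represented by M26643_g_at, which read 215, 88.6 and 74.3 on the normal arrays and 126 and 159 on the diabetic arrays. The normal arrays enclose both diabetic values. Its difference was 0.33 (SE 0.68, or 0.80 without normal array 1 and 0.04 without normal array 3).

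The other tested neuronal sodium channels had differences smaller than their standard errors. The differences were 0.20 (SE 0.50) for Scn2a, -0.05 (SE 0.61) for Scn3a, 0.03 (SE 0.55) for Scn9a and -0.16 (SE 0.67) for Scn11a. Scn8a, the main channel of mature axon initial segments, gave 0.40 (SE 0.66) and 0.01 (SE 0.51) on its tested probe sets. A further probe set each of Scn3a and Scn8a was at the floor on all 5 arrays, and a further one of Scn9a on 4. The adhesion-like beta subunit Scn2b, which modulates channel gating, was at the floor on all 5 arrays, and the sensory neuron channel Scn10a reached at most 26.8.

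Voltage-gated potassium pore subunits were the largest group, with 41 probe sets of 27 genes. Of these, 15 were at the floor on all 5 arrays, including those of Kcna2, Kcna3, Kcnb2, Kcnq1 and Kcns1, whose probe sets were never above it. The 22 tested were 10 above and 12 below normal, with a median difference of -0.01 and a range of -1.11 to 1.17.

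Kcnd2, a pore subunit of the fast A-type potassium current, had the largest positive difference of this group. S64320_at read 20, 32.4 and 20 on the normal arrays, with arrays 1 and 3 at the floor, and 49.9 and 55.8 on the diabetic arrays. All diabetic values are above all normal ones. The normal mean was under the lowest level tested, so the probe set was tested only through the diabetic arrays. The floored log2 difference was 1.17 (SE 0.53, unadjusted p = 0.075, adjusted p = 1.0 with limma). With a floor of 40 the difference was 0.40. The other probe set of Kcnd2, M59980_s_at, was at the floor on all 5 arrays. Kcnv1, a silent subunit that modifies other potassium channels, read 27.1, 35.8 and 31.1 on the normal arrays and 43.0 and 46.7 on the diabetic arrays, a difference of 0.52 (SE 0.48) without overlap, or 0.16 with a floor of 40.

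On the lower side, Kcnh4 of the ether-à-go-go family read 87.4, 95.2 and 78.6 on the normal arrays and 60.3 and 34.8 on the diabetic arrays. The diabetic arrays lie below all normal ones but differ from each other by more than the normal pools do. Its log2 difference was -0.92 (SE 0.44, unadjusted p = 0.083, adjusted p = 1.0 with limma), or -0.53 without diabetic array 2 and -0.36 with the deposited values unscaled. Kcna1, a pore subunit of axonal delayed rectifiers, read 101, 23.2 and 25.7 on the normal arrays and was at the floor on both diabetic arrays. Its difference of -0.97 (SE 0.94) rests on normal array 1, without which the probe set is too dim to be tested. A further probe set of Kcna1 was at the floor on all 5 arrays. Kcnh2, which carries the rapid delayed rectifier known from the heart, had the lowest difference. Z96106_at read 55.8, 204 and 168 on the normal arrays and 49.4 and 67.3 on the diabetic arrays, so that normal array 1 sits with the diabetic ones. The difference was -1.11 (SE 0.80, adjusted p = 1.0 with limma) and -1.68 without normal array 1. The second probe set of Kcnh2, U75210_s_at, gave -0.20 (SE 0.34).

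Kcnh3, a neuronal ether-à-go-go channel named here for its strong signal on AJ007627_at, differed by -0.32 (SE 0.29), with 369, 388 and 305 on the normal and 327 and 244 on the diabetic arrays. The diabetic array 1 value lies inside the normal range, and the difference was -0.11 without diabetic array 2 and -0.53 without diabetic array 1. Kcna5, a delayed rectifier, shows how far normal pools can part, with 21.6, 181 and 112 on the normal arrays and 108 and 96.2 on the diabetic arrays. Kcnc1 and Kcnc4, subunits for rapid repolarisation, differed by -0.0021 (SE 0.48) and 0.02 (SE 0.53), and Kcnq3, of the muscarine-sensitive M current, by 0.19 (SE 0.43). The other probe set of Kcnq3 was at the floor on all 5 arrays.

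**Figure D3:**
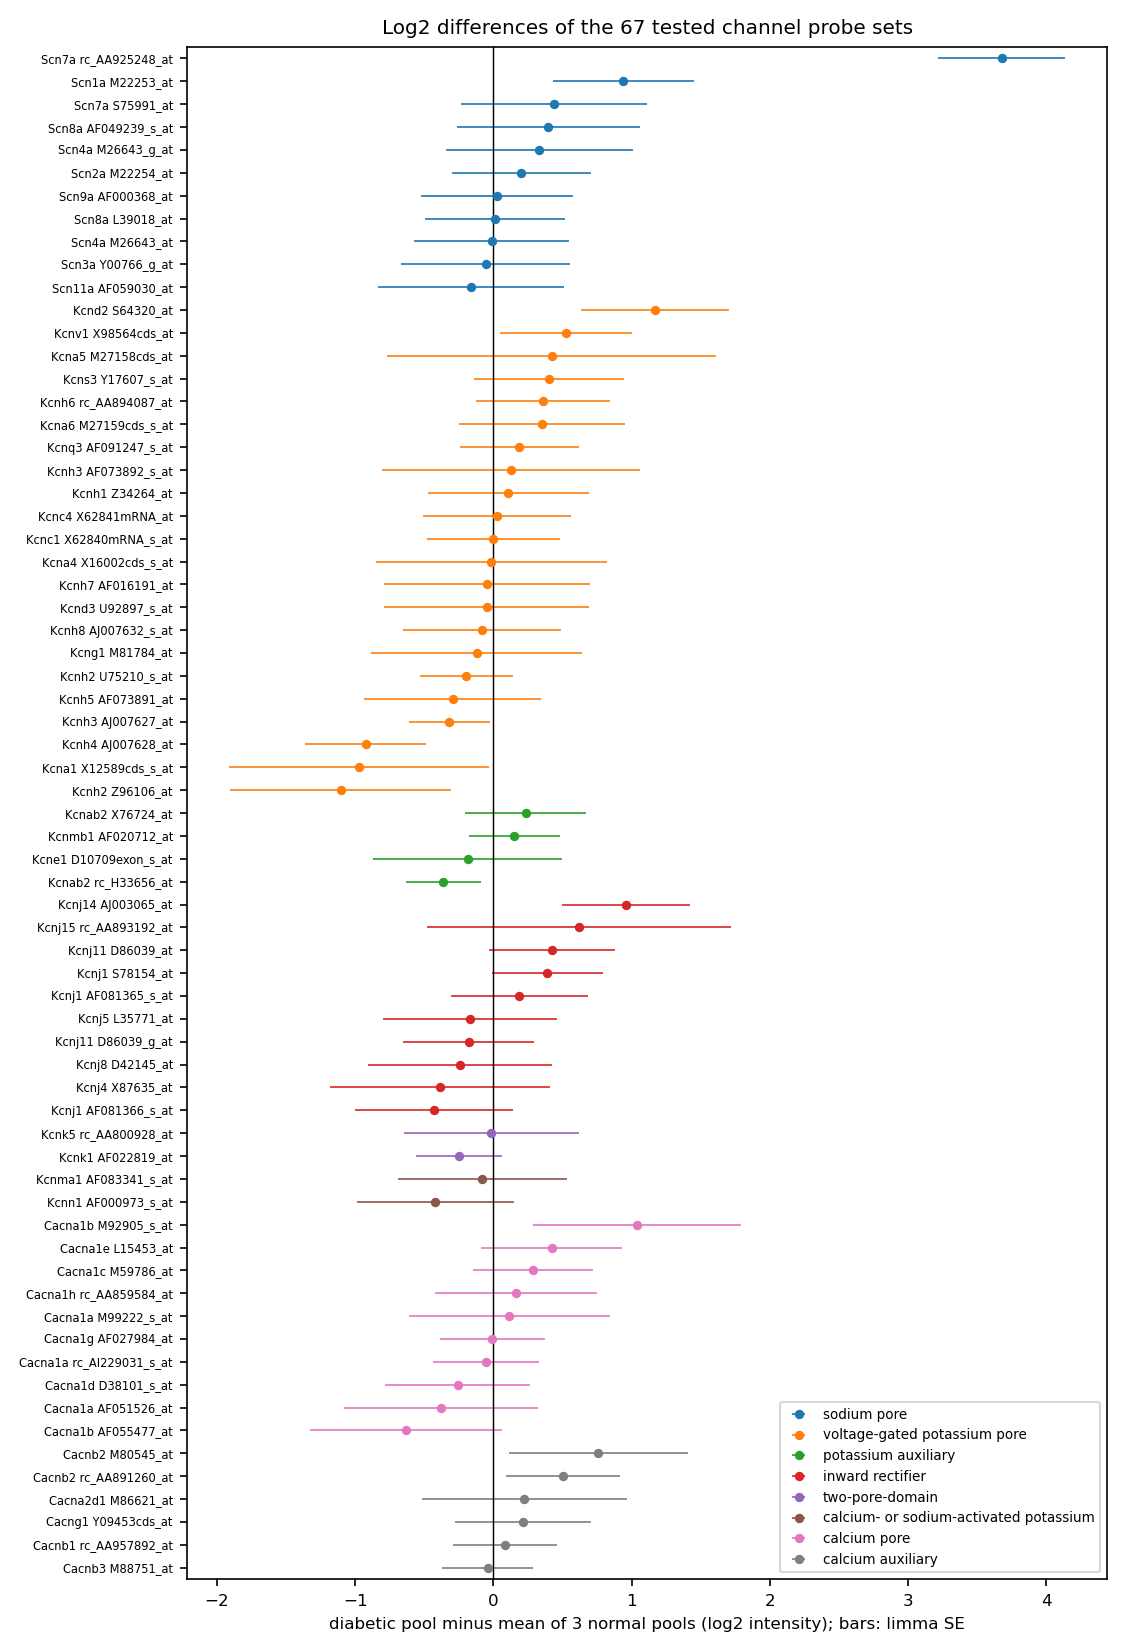
Log2 difference between the diabetic pool and the mean of the 3 normal pools for the 67 tested channel probe sets, ordered by role; points are limma's estimates and bars 1 standard error. Scn7a rc_AA925248_at lies at 3.68, and the other probe sets lie between -1.11 and 1.17 on both sides of 0 in the groups with more than 2 tested probe sets.

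Auxiliary subunits of potassium channels had 8 probe sets, of which 4 were tested, 2 above and 2 below normal. Kcnab2 encodes a cytoplasmic beta subunit that binds voltage-gated channels. Its probe set rc_H33656_at read 360, 412 and 428 on the normal arrays and 271 and 355 on the diabetic arrays. Both diabetic values are below the normal ones, the second only narrowly. The difference was -0.36 (SE 0.27, adjusted p = 1.0 with limma), or -0.17 without diabetic array 1, and 0.16 with the deposited values unscaled, where the median of all tested probe sets was itself 0.47. Its other probe set, X76724_at, read 92.2, 85.8 and 69.6 against 94.4 and 98.2 and lay 0.23 (SE 0.44) above normal without overlap, or 0.11 without normal array 3. Kcnmb1, the beta subunit of the large-conductance channel in smooth muscle, differed by 0.15 (SE 0.33), and Kcne1, a small membrane partner of Kcnq1, by -0.19 (SE 0.69) with diabetic arrays at 92.3 and 26.5. The other probe set of Kcne1 was at the floor on all 5 arrays.

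Inward rectifiers, the family that carries most of the potassium conductance of Müller cells, had 20 probe sets of 14 genes here, and 10 were tested, 5 above and 5 below normal with a median difference of 0.01. Kcnj14, a strong inward rectifier, read 126, 122 and 74.8 on the normal arrays and 207 and 200 on the diabetic arrays. Both diabetic arrays lie well above the highest normal one and close to each other. The signal was at 1.95 times normal, with a log2 difference of 0.96 (SE 0.46, unadjusted p = 0.087, adjusted p = 1.0 with limma), which ranged from 0.72 to 1.09 over the fits that each left out 1 array and reached 1.42 between the pair from the shared day. It was 1.48 with the deposited values unscaled, a setting in which all tested probe sets had a median of 0.47.

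Among the other tested inward rectifiers only Kcnj1 had probe sets without overlap, and these lay on both sides of normal. Kcnj1, known from the kidney tubule, had 3 tested probe sets, at 0.39 (SE 0.40), 0.19 (SE 0.50) and -0.43 (SE 0.57). The first, S78154_at, lay above normal without overlap, with 86.3, 112 and 103 against 120 and 142, and the last, AF081366_s_at, below it, with 57.9, 32.6 and 31.2 against 30.9 and 27.0. The difference of AF081366_s_at was -0.14 without normal array 1 and -0.0024 with the deposited values unscaled. Kcnj11 and Kcnj8 encode the pores of potassium channels that close at high ATP. Kcnj11 gave 0.42 (SE 0.46) and -0.18 (SE 0.48), and Kcnj8 -0.24 (SE 0.67). Kcnj15 read 117 on normal array 1 but 20 and 21.4 on normal arrays 2 and 3, with 41.6 and 76.7 on the diabetic arrays, a difference of 0.62 (SE 1.10). Kcnj16, which forms channels together with Kcnj10, reached at most 32.65 on its brighter probe set and was not tested. Kcnj2, Kcnj6, Kcnj9, Kcnj12 and Kcnj13 were at the floor on all 5 arrays.

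The two-pore-domain leak channels and the calcium-activated channels lay at or below normal. Kcnk1 read 235, 228 and 199 on the normal arrays and 227 and 151 on the diabetic arrays. Its difference of -0.25 (SE 0.31) rested on diabetic array 2 and was 0.04 without it. Kcnk5 gave -0.02 (SE 0.63). Kcnn1, a small-conductance calcium-activated channel, read 138, 66.9 and 75.0 on the normal arrays and 70.1 and 62.3 on the diabetic arrays, a difference of -0.42 (SE 0.57) that was -0.10 without normal array 1. Kcnma1, the pore of the large-conductance calcium-activated channel, had 4 probe sets, of which 1 was tested, with 20, 45.2 and 29.1 against 39.5 and 20 and a difference of -0.08 (SE 0.61). Diabetic arrays of that probe set fall on opposite sides of the normal median.

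Calcium channel pore subunits had 19 probe sets of 8 genes, with 10 tested, 5 above and 5 below normal, and a median difference of 0.05. Cacna1b, the pore of the N-type channel of nerve terminals, had the largest difference on M92905_s_at, which read 103, 74.4 and 31.0 on the normal arrays and 176 and 91.6 on the diabetic arrays. The second diabetic array lies inside the normal range. The difference was 1.04 (SE 0.75, adjusted p = 1.0 with limma), or 0.54 without normal array 3 and 0.57 without diabetic array 1. The other tested probe set of Cacna1b, AF055477_at, went the other way at -0.63 (SE 0.69), with 77.7, 34.3 and 29.7 against 35.1 and 21.8. Cacna1c, the pore of an L-type channel, read 114, 79.3 and 115 on the normal arrays and 121 and 127 on the diabetic arrays. This is above normal without overlap but by a small margin, with a difference of 0.29 (SE 0.44) that was 0.11 without normal array 2. Of the untested probe sets of Cacna1c, M89924cds_s_at was at the floor on all 5 arrays and U31815_s_at read at most 41.7.

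The remaining calcium pore subunits overlapped between groups. Cacna1g, a T-type channel that opens at low voltage, read 207, 199 and 141 on the normal arrays and 143 and 223 on the diabetic arrays, a difference of -0.01 (SE 0.38) whose sign depended on the array left out. The T-type Cacna1h split the diabetic arrays, at 21.4 and 71.5, against 46.6, 39.6 and 23.0. Cacna1d, the L-type channel known from photoreceptor and hair cell synapses, differed by -0.26 (SE 0.53) on 1 tested probe set, and Cacna1a, the P/Q-type pore, by 0.12 (SE 0.72), -0.05 (SE 0.38) and -0.38 (SE 0.70) on 3. Both probe sets of Cacna1s, the skeletal muscle channel, were at the floor on all 5 arrays.

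Auxiliary calcium channel subunits had 7 probe sets, 6 of them tested, with 5 above and 1 below normal and a median difference of 0.22. The beta subunits bring the pore to the membrane. Among them Cacnb2 had both tested probe sets above normal. On rc_AA891260_at it read 117, 139 and 91.7 on the normal arrays and 156 and 169 on the diabetic arrays, without overlap, a difference of 0.50 (SE 0.42, adjusted p = 1.0 with limma). On M80545_at it read 20, 44.6 and 20 against 48.4 and 40.4, a difference of 0.76 (SE 0.65) with overlap. Cacnb3 was steady, with 159, 158 and 175 on the normal arrays and 148 and 172 on the diabetic arrays (-0.04, SE 0.33). Cacnb1 differed by 0.08 (SE 0.37), Cacna2d1, the extracellular subunit bound by gabapentin, by 0.22 (SE 0.74) and Cacng1 by 0.22 (SE 0.49).

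Where a gene had several probe sets, they could fall on both sides of normal. Of the 77 genes 32 had more than 1 probe set, and 11 had more than 1 that was tested. The tested probe sets of 7 of these genes lay on both sides of normal (Cacna1a, Cacna1b, Kcnab2, Kcnh3, Kcnj1, Kcnj11 and Scn4a), or 63.6%, beside 43.5% of all 1030 genes with more than 1 tested probe set. Many of these differences are smaller than their standard errors, among them both of Scn4a (0.33 with SE 0.68 and -0.01 with SE 0.56), so a split of signs need not be a disagreement. Those of the other 4 (Cacnb2, Kcnh2, Scn7a and Scn8a) lay on the same side, above normal for Cacnb2 (0.50 and 0.76), Scn7a (0.44 and 3.68) and Scn8a (0.01 and 0.40) and below it for Kcnh2 (-0.20 and -1.11).

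**Figure D4:**
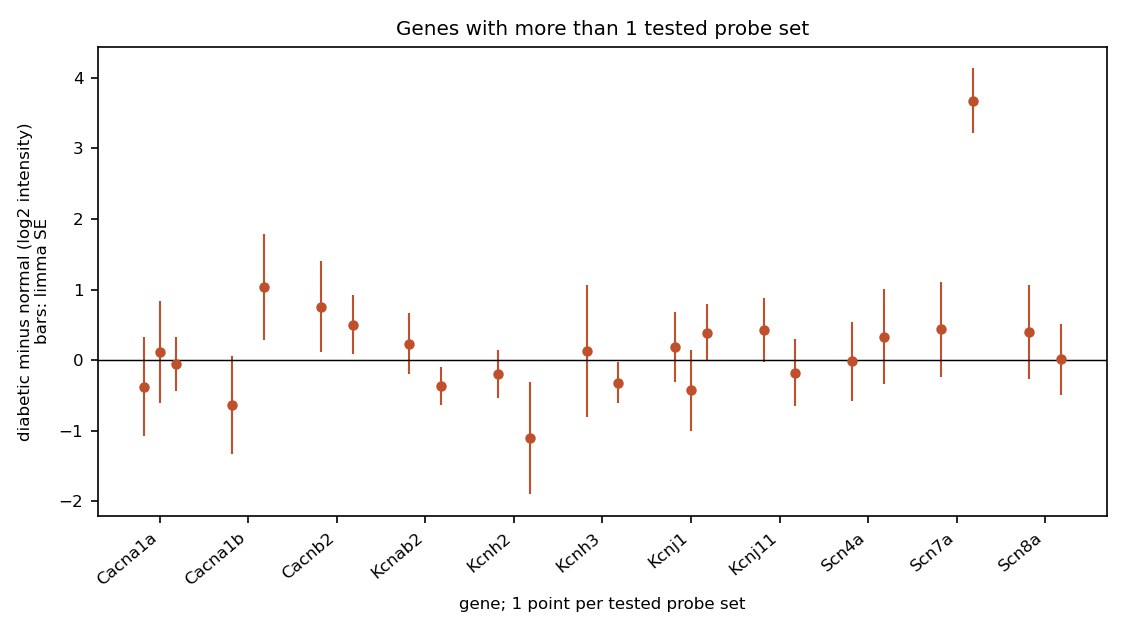
Log2 difference between the diabetic pool and the normal pools (vertical axis) for the 11 channel genes with more than 1 tested probe set, 1 point per probe set with limma's standard error. Points of 7 genes fall on both sides of 0, and the points of Scn7a lie at 0.44 and 3.68.

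Other genes of ion transport and of channel binding, taken from lists, gave no call either. Each gene was counted by its brightest tested probe set. Of 12 tested other cation and chloride channel genes 7 were above and 5 below normal, with a median of 0.08. All 3 tested calcium release channel genes were above (median 0.10). Of 12 tested pump and exchanger genes 9 were above and 3 below (median 0.25), and of 8 tested channel-binding protein genes 2 were above and 6 below (median -0.20). With limma 0 of these 35 genes had an adjusted p under 0.05 and 0 an unadjusted p under 0.05, beside 98 of all 6118 tested probe sets. Above normal without overlap were 2 of the 12 cation and chloride channel genes and 2 of the 12 pump and exchanger genes, beside 9.53% of all tested probe sets. The 2 channel genes were Clcn3 and Cnga1, and Cnga1 is counted again among the photoreceptor genes. Below normal without overlap was 1 cation and chloride channel gene, beside 7.01%. The sodium-calcium exchanger Slc8a1, which exports calcium, read 529, 433 and 235 on the normal arrays and 689 and 557 on the diabetic arrays, above normal without overlap (0.71, SE 0.49). The exchangers Slc8a2 and Slc8a3 differed by 0.62 (SE 0.67) and -0.06 (SE 0.51).

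The samples are labelled as Müller cells, and the measured markers of these cells were above the floor on every array. Of 12 such genes 10 were measured and all 10 tested, with 4 above and 6 below normal. Glul, the glutamine synthetase of Müller cells, read 7532 to 11800 over the 5 arrays, and the inward rectifier Kcnj10 only 31.2 to 78.7. Markers of other cells differed as follows. Of 13 tested retinal neuron genes 5 were above and 8 below normal (median -0.13), and their summed signal over 16 measured genes was 2056, 3178 and 2435 on the normal and 2490 and 2868 on the diabetic arrays, inside the normal range. All 6 tested photoreceptor genes were above normal (median 0.92, unadjusted p under 0.05 with limma for 1), 4 without overlap, with sums of 9588, 9134 and 3955 against 12140 and 13000. All 8 tested leukocyte and microglia genes were above normal (median 0.63, unadjusted p under 0.05 with limma for 1), 6 without overlap, with sums over 10 measured genes of 1473, 1740 and 1541 against 2065 and 2302. Over all tested probe sets 9.53% lay above normal without overlap, and 1.6% had an unadjusted p under 0.05 with limma. Of 6 tested vascular genes 1 was above and 5 below normal, with sums over 8 measured genes of 3474, 2558 and 2691 against 2459 and 2965. The part of photoreceptor or leukocyte RNA in the channel values was not tested.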

How the data were processed

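Each deposited table gives 1 linear intensity per probe set for an Affymetrix rat expression array. How the authors summarised and scaled these intensities is not given in the sources used here. A deposited experiment record of each array, text with no measurement (unit "other"), served only to see which arrays shared a day and lot. The members, gene lists and rules were chosen with earlier results of these data known. Intensities were quantile-normalised over 5 arrays, floored at 20, converted to log2, stripped of 59 control probe sets, and the dimmest 30% by the mean of the group means were dropped, leaving 6118 of 8740. Normalised intensities in the text are these values on the linear scale; differences are between floored log2 values, which shrinks those of dim genes.

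The 2 diabetic arrays were averaged as log2 values and tested against the 3 normal pools (limma 3.58.1, R 4.3.3; lmFit, eBayes with trend, 2 residual degrees of freedom, two-sided, Benjamini-Hochberg over all 6118). Only normal pools supplied replicate spread, and the test takes the diabetic pool to have the same. The step was tested on simulated data. Genes named with full statistics were those without overlap of arrays at an unadjusted p under 0.05, both Scn7a probe sets, and in each role group the probe set with the largest moderated statistic and the brightest. The further probe sets were named after their values were seen. Symbols came from the platform annotation; all 123 members matched a RefSeq gene table by identifier, with 0 symbols changed. The arrays give no genome build, so coordinates are those of RefSeq's promoter table alone. Protein sequences were not used here. Figures used matplotlib 3.10.9.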

Additional observations from a re-analysis of the deposited data

How the results depend on the processing

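The floored log2 difference of Scn7a rc_AA925248_at ranged over the alternatives from 2.68 with a floor of 40 to 4.43 with a floor of 10, because the floor sets the normal level. With all 3 normal arrays at the floor of 20, the lowest value possible, the difference could not be negative, so its kept sign is no support. The adjusted p of this probe set in limma fell under 0.05 in 2 of the alternatives, at 0.0199 with no filter and 0.00672 with the 5 arrays as separate samples. With no filter 170 probe sets were called, 162 of which had no spread over the normal arrays, and 4 of the calls were channels (Scn7a rc_AA925248_at, both Kcnj3 probe sets and Scn9a U79568_s_at), each without normal spread. The differences of the other 3 were 0.04, 0.35 and 0.09. With separate arrays 13 probe sets and 1 channel were called.

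Shares of all tested probe sets under the same setting are given first in brackets. A second share, where given, is that of the tested members, which numbered 32 with the dimmest 50% dropped and 123 with no filter. An unadjusted p under 0.05 with limma was reached by 1 channel probe set in the main setting (1.6%, against 1.49% of members). It was reached by 3 with the deposited values unscaled (0.556%, against 4.35%) and 7 with a floor of 40 (4.25%, against 9.72%). Of the 7, 6 were without normal spread. The count was 4 with no filter (4.46%, against 3.25%), 3 without the trend in eBayes (1.68%, against 4.48%) and 4 with separate arrays (4.02%, against 5.97%). Leaving out 1 array gave 1 to 4 (0.866% to 4.69%), with 4 both without normal array 1 and without diabetic array 1. Channel probe sets above all normal arrays numbered 9, 13 unscaled (8.5%), 6 with the dimmest 50% dropped (10.1%), 29 with the low-ratio arrays (34.4%, against 43.3% of members), and 11 to 21 with 1 array left out (13.8% to 23.3%). Those below numbered 4, 0 unscaled (0.212%), 2 with median scaling (5.72%), with a floor of 40 (5.72%) and with the dimmest 50% dropped (6.77%), 9 with the low-ratio arrays (34.7%, against 13.4% of members), and 7 to 12 with 1 array left out (12.2% to 22%). Fewer arrays separate more easily, so the last counts are higher by construction. The median difference was 0.51 unscaled, where that of all tested probe sets was 0.47, and lay between -0.03 and 0.19 otherwise.

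The sign turned with the deposited values unscaled for Kcnn1 (0.14), Kcnk1 (0.27), Cacna1g (0.52), Kcnh3 (0.22), Cacnb3 (0.4703) and Kcnab2 rc_H33656_at (0.16). In that setting all tested probe sets had a median of 0.473. Of these differences only that of Cacna1g lay above that median, and that of Cacnb3 lay close to it. With the low-ratio arrays the sign turned for Kcnk1 (0.0902). For Cacna1g it also turned with median scaling (9e-04) and between the same-day arrays (0.67). With 1 array left out Kcnk1 ranged from -0.55 to 0.0422, Cacna1g from -0.33 to 0.31 and Cacnb3 from -0.15 to 0.0669. The cause was not tested. Kcnd2, Scn1a, Kcnv1, Kcnj1 AF081366_s_at and Kcna1 were not tested with the dimmest 50% dropped, nor was Kcna1 without normal array 1. No paired analysis was possible because the diabetic numbers mark repeat arrays of 1 pool and the normal numbers different pools.

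Signal over background limits the channel values, since 36 of the 123 members never left the floor and 20 of the 67 tested touched it on at least 1 array. With 1 diabetic pool the spread among diabetic rats was not measured.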
